A study of Mus musculus with 5 samples.

Results

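The 9 Pax genes of the mouse, Pax1 to Pax9, were examined for peaks of RING1B, the catalytic subunit of Polycomb Repressive Complex 1 (PRC1), in mouse embryonic fibroblasts (MEFs). They were taken as the whole family by name, 9 of the 22350 protein-coding genes that GENCODE vM1 places on autosomes or the X chromosome, and the family was chosen with earlier results of these data known. RING1B was mapped by ChIP-Seq, the sequencing of DNA that an antibody pulls down with its protein, in crosslinked chromatin cut with micrococcal nuclease. All lines derive from MEFs whose EED alleles are floxed, so the control cells carry this allele too. The control library came from the parental cells, the EZHIP library from cells carrying a lentivirus for human EZHIP, and the H3.3 K27M library from cells carrying a lentivirus for that histone mutant. The transgenes were expressed from a vector with the EF1a promoter, and both products inhibit PRC2, which deposits H3K27me3. The series also holds an H3.3 K27R line and an EED deletion line, the latter a single clone, and neither was analysed here. A single library was profiled per group, so no difference between groups has a replicate check and no test was made. The lists hold peak positions on mm9, with no read count or score, and the depth behind them is unknown. Their narrowest peaks also differ, at 1199 bases in the control and 399 bases in each other list. Peak counts, widths, covered bases and nesting are therefore not compared on equal terms between the control and the transduced lines. The reason for this difference was not tested. Where a list holds no peak, RING1B may lie below what that library and its peak caller could detect. The lists hold no expression values, so the fibroblast label could not be set against marker genes.

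Pax genes encode transcription factors that bind DNA through a paired domain and set up organs and cell lineages in the embryo. They fall into subgroups by structure. Pax1 and Pax9 act in the skeleton and the pharyngeal pouches. Pax2, Pax5 and Pax8 act in the kidney, B lymphocytes and thyroid, respectively, and in the midbrain and hindbrain. Pax3 and Pax7 act in the neural crest and in muscle progenitors. Pax4 and Pax6 act in the endocrine pancreas, and Pax6 also in the eye and forebrain. Developmental genes with CpG-rich starts are typical Polycomb targets in cells that do not use them, although not every Pax start is CpG-rich.

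A gene was counted as holding a peak when a peak overlapped its gene body or lay within 5000 bases of its start. By this rule 6 of the 9 Pax genes held a peak in the control list, namely Pax2, Pax3, Pax5, Pax6, Pax7 and Pax9. Both transduced lines held peaks at the same 4 genes, Pax2, Pax5, Pax6 and Pax7. Pax3 and Pax9 had a peak in the control list and in neither other list, and Pax1, Pax4 and Pax8 had none in any list. Among all protein-coding genes, 3.81% held a control peak, 1.32% an EZHIP peak, 1.21% an H3.3 K27M peak and 0.765% a peak in all 3 lists.

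A gene body is a larger target where the gene is long. The median length of the Pax genes was 55049 bases, against 15428 bases for all protein-coding genes. A rule that does not depend on length asks whether the gene start itself lies in a peak. The start lay in a control peak at 5 Pax genes (Pax2, Pax3, Pax5, Pax6 and Pax7), in an H3.3 K27M peak at 4 (Pax2, Pax5, Pax6 and Pax7) and in an EZHIP peak at 0, or at 2 (Pax2 and Pax5) with peaks within 10000 bases merged. The shares of all protein-coding genes were 2.82%, 0.743% and 0.595%, respectively.

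**Figure D1:**
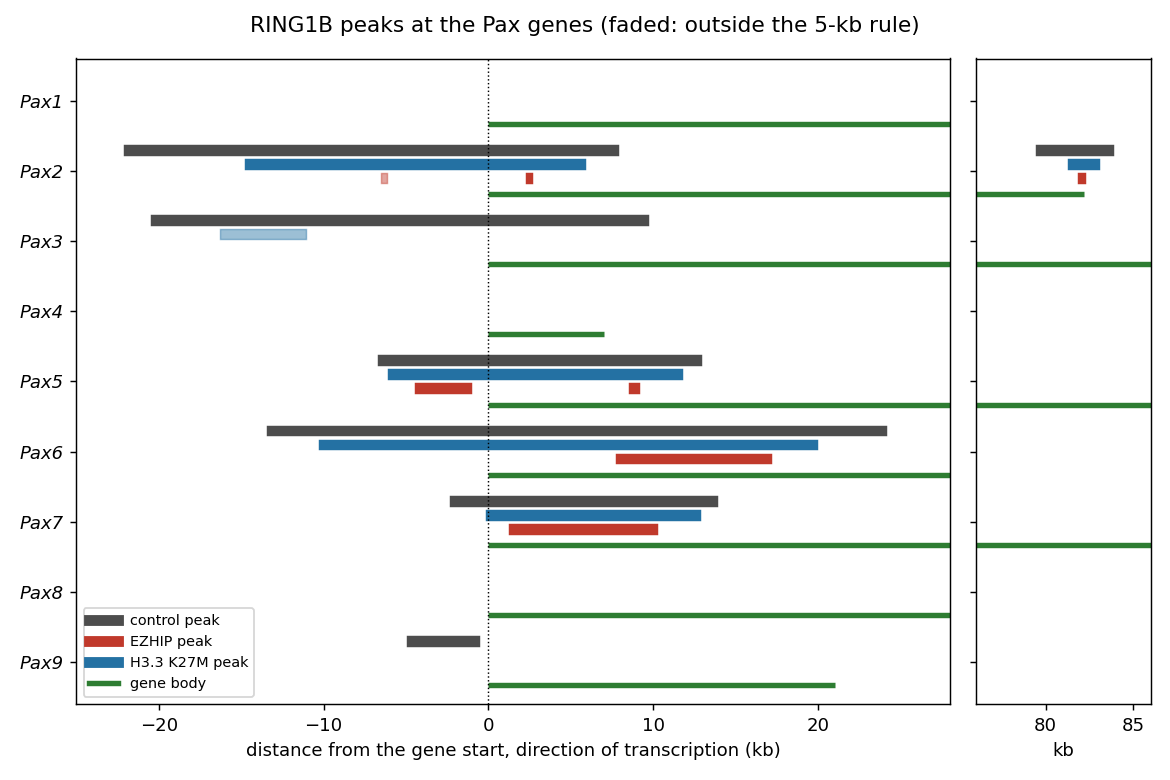
RING1B peaks at the 9 Pax genes, plotted by distance in kb from the gene start in the direction of transcription, with the gene body in green. The right panel shows the end of Pax2. Bars are the control (grey), H3.3 K27M (blue) and EZHIP (red) peaks of 1 library each. Control and H3.3 K27M bars cross the start of Pax2, Pax5, Pax6 and Pax7, and no EZHIP bar does.

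Sequences are shown for the genes that separate these patterns. They are the 250 bases before the gene start on NCBIM37, the assembly behind mm9, read from 5′ to 3′ on the strand of the gene, with every CpG dinucleotide in capitals. The Pax2 and Pax5 starts lay in control and H3.3 K27M peaks, the Pax3 start in a control peak alone, and the Pax4 start in none. For Pax2 and Pax5, the central 250 bases of the EZHIP peak closest to the start are set beside the promoter.

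Pax2 promoter, chr19:44830289-44830538, + strand: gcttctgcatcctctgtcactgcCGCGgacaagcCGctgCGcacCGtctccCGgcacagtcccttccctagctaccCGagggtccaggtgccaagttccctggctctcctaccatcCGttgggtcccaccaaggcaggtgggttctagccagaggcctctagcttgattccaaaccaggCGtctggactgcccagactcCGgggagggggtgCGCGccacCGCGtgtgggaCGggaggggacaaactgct
Pax2 EZHIP peak, chr19:44832876-44833125, + strand: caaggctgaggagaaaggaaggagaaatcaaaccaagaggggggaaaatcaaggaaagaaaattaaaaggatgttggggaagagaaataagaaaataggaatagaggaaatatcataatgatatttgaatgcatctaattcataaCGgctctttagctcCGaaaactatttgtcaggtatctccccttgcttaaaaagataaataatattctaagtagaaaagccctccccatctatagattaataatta
Pax5 promoter, chr4:44724319-44724568, - strand: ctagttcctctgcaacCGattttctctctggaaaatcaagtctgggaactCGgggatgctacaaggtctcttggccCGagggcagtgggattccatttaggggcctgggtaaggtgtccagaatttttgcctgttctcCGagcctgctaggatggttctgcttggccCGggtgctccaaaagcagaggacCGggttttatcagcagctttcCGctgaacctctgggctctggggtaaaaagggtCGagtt
Pax5 EZHIP peak, chr4:44726976-44727225, - strand: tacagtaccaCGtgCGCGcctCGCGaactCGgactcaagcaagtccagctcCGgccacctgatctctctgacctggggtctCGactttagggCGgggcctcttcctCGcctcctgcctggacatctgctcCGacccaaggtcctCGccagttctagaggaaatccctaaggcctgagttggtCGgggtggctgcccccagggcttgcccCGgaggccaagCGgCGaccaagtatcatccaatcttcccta
Pax3 promoter, chr1:78193710-78193959, - strand: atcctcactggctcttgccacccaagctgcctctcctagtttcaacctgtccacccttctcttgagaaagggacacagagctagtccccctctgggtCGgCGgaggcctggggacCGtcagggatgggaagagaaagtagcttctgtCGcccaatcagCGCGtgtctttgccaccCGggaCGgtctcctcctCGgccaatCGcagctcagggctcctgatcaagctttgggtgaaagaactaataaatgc
Pax4 promoter, chr6:28399354-28399603, - strand: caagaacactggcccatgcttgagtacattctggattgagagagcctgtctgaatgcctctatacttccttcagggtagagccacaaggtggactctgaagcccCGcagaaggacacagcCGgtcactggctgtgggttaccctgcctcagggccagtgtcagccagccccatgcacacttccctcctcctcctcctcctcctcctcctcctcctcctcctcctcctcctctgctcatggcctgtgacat

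The promoter stretches held 15 CpG at Pax2, 8 at Pax5, 10 at Pax3 and 2 at Pax4. At Pax2 the central stretch of the EZHIP peak held 2 CpG, fewer than the promoter. At Pax5 it held 16, more than the promoter. Over the whole of these EZHIP peaks there were 12.5 CpG per kb at Pax2 and 35.6 at Pax5, so the central stretch at Pax5 was richer than its peak. EZHIP peaks close to a Pax start thus included both CpG-poor and CpG-rich sequence.

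Over all protein-coding genes, the same stretch of 250 bases held a median of 8 CpG, with quartiles of 3 and 18. The other Pax genes held 15 at Pax1, 15 at Pax6, 11 at Pax7, 6 at Pax8 and 21 at Pax9. The Pax genes with the start in a control peak ranged from 8 to 15, and those with the start in no peak from 2 to 21. CpG number before the start therefore did not separate the members with and without RING1B at the start.

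**Figure D2:**
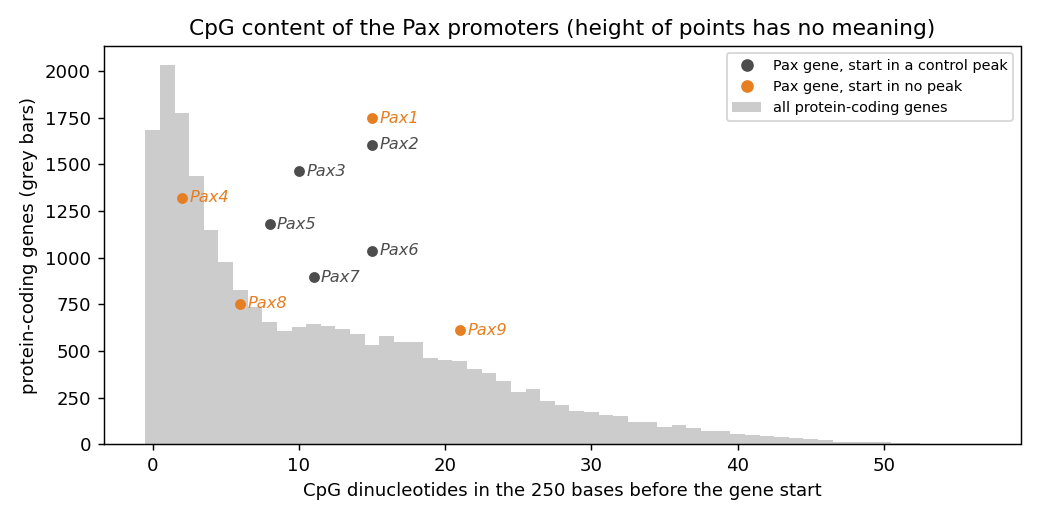
CpG dinucleotides in the 250 bases before the start of each Pax gene (points) over the distribution for all protein-coding genes (grey bars, number of genes). Grey points mark genes whose start lay in a control peak, orange points the others. Pax9, with 21, and Pax1, with 15, lie among the orange points.

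Pax2, which directs development of the kidney, the optic stalk and the midbrain-hindbrain boundary, lies on chromosome 19 from 44830539 to 44912758 on the plus strand. It was the only Pax gene with separate peaks at both ends. The control peak over its start ran from 44808401 to 44838399 and spanned 29999 bases, of which 22138 lay upstream of the gene. It took in exons 1 to 3 of the 11 exons of Pax2-003, the transcript with the longest coding sequence. The H3.3 K27M peak there ran from 44815801 to 44836399 and spanned 20599 bases. It stopped 7400 bases short of the control peak on the upstream side and 2000 bases short on the downstream side, so the upstream flank lost more. The EZHIP list held a peak of 399 bases in intron 1, from 44832801 to 44833199. This is 2 bins of 200 bases, the minimum width in that list, which 58 of its 311 peaks have. A further EZHIP peak of 399 bases lay 6140 bases before the start, just outside the rule. The methods state a maximum gap of 10000, and these EZHIP peaks lay 8401 bases apart. Merging peaks within 10000 bases joined them into a peak of 9199 bases that held the start.

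The peak at the end of Pax2 lay at the opposite end of the gene, about 80 kb from the start. In the control it spanned 4399 bases, from 44910001 to 44914399, and covered the last exon and the start of the antisense transcript 1700039E22Rik. The H3.3 K27M peak there spanned 1799 bases and the EZHIP peak 399 bases, both within the control peak. The order of widths at this end was the same as at the start. Over the whole locus, the gene body together with 5000 bases on each side of its start, peaks covered 15619 bases in the control, 11819 in the H3.3 K27M and 757 in the EZHIP list. With peaks within 10000 bases merged, the EZHIP value became 8019 bases and the others did not change.

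Pax5, the factor that commits lymphoid progenitors to the B lineage, lies on chromosome 4 from 44544017 to 44724318 on the minus strand. Its control peak spanned 19599 bases from 44711401 to 44730999, across exon 1 and part of intron 1. The H3.3 K27M peak spanned 17799 bases and was short by 600 bases upstream and 1200 bases downstream. It kept 90.8% of the control width, the highest share at any Pax gene. The EZHIP list instead held a pair of peaks on either side of the start, a peak of 3399 bases that ended 1083 bases before it and a peak of 599 bases in intron 1 that began 8519 bases after it. Together they spanned 3998 bases, 20.4% of the control width. The start lay in the gap between them, which measured 9601 bases. Merging peaks within 10000 bases joined them across the start into a peak of 13599 bases, 69.4% of the control width.

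Pax6, needed for the eye, the forebrain and pancreatic islets, lies on chromosome 2 from 105509053 to 105543317 on the plus strand. It carried the widest peaks of the family in all 3 lists as deposited, although the merged EZHIP peak at Pax5 was wider. The control peak spanned 37599 bases from 105495601 to 105533199 and was number 10 by width of 821. The H3.3 K27M peak spanned 30199 bases from 105498801 to 105528999 and was number 7 of 286. Both held the start of Pax6 and of its antisense gene Pax6os1. The EZHIP peak spanned 9399 bases from 105516801 to 105526199 and was number 58 of 311.

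The EZHIP peak at Pax6 began 7748 bases after the gene start and lay wholly within the gene. It covered exons 3 to 8 of the 14 exons of Pax6-008. Pax6 has 29 distinct annotated transcript starts, of which all 29 lay in the control peak, 27 in the H3.3 K27M peak and 13 in the EZHIP peak. Pax6 was the only Pax gene with any annotated transcript start in an EZHIP peak. At Pax2 the control and H3.3 K27M peaks held 5 of 5 transcript starts, at Pax5 6 of 7 and at Pax7 2 of 2, while the EZHIP peaks held 0 at each. With peaks within 10000 bases merged, EZHIP peaks held 4 of 5 at Pax2 and 6 of 7 at Pax5.

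Pax7, a marker of muscle satellite cells and of the dorsal neural tube, lies on chromosome 4 from 139292977 to 139389445 on the minus strand. Its control peak spanned 16199 bases from 139375601 to 139391799 and reached 2354 bases upstream of the start. The H3.3 K27M peak spanned 12999 bases and reached only 154 bases upstream. Both ran from the start through exon 4 of the 9 exons of Pax7-002. The EZHIP peak spanned 8999 bases, began 1246 bases after the start and covered exons 2 to 4. It was short of the control peak by 3600 bases on each side and kept 55.6% of its width. This was the highest EZHIP share at any Pax gene in the peaks as deposited, and with peaks within 10000 bases merged the share at Pax5 was higher.

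Pax3, which acts in the neural crest and in migrating muscle precursors and shares its subgroup with Pax7, lies on chromosome 1 from 78097842 to 78193709 on the minus strand. Its control peak spanned 30199 bases from 78184001 to 78214199 and ran from 20490 bases upstream of the start to 9708 bases downstream, through exon 4 of the 9 exons of Pax3-002. It was the second widest control peak in the family by a margin of 200 bases over that at Pax2. The H3.3 K27M list held no peak by the rule. It did hold a peak of 5199 bases within the control peak, from 78204801 to 78209999, whose near edge lay 11092 bases before the start. The closest EZHIP peak was 6883 kb away. Within the subgroup, the wider control peak was therefore the one without an H3.3 K27M peak at the start. In the EZHIP list neither the Pax3 nor the Pax7 start lay in a peak.

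Pax9, which acts in the pharyngeal pouches, teeth and vertebral column, lies on chromosome 12 from 57792754 to 57813809 on the plus strand. Its control peak spanned 4399 bases from 57787801 to 57792199, so it ended 555 bases before the start. It entered through the window alone and held the start of Gm15524, a noncoding gene that runs into Pax9. The closest H3.3 K27M peak lay 154 kb from the Pax9 start and the closest EZHIP peak 159 kb. The peak ended 2 bases from the CpG-island-like sequence at the Pax9 start. This is less than the 200-base bin, so whether they overlap cannot be told from the list.

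No peak met the rule at the remaining 3 genes. Pax1, the partner of Pax9 in sclerotome, lies on chromosome 2 from 147187661 to 147219031, and the closest control, EZHIP and H3.3 K27M peaks were 169, 272 and 272 kb from its start. For Pax4, an endocrine pancreas factor on chromosome 6 from 28392334 to 28399353, the distances were 721, 1298 and 1298 kb. For Pax8, the thyroid and kidney factor on chromosome 2 from 24276071 to 24331119, they were 701, 2227 and 1850 kb. At all 3 genes the distance was shorter in the control than in either other list. The control list also held more peaks, 821 against 311 EZHIP and 286 H3.3 K27M peaks, so these distances are not comparable between lists.

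At the 4 genes with a peak in every list, the covered bases of the locus had the order control, H3.3 K27M, EZHIP. Pax5 was covered over 17918 bases in the control, 16718 in the H3.3 K27M and 3998 in the EZHIP list. Pax6 was covered over 29147, 24947 and 9399 bases, and Pax7 over 16199, 12999 and 8999 bases, in the same order. Of all 171 protein-coding genes with a peak in every list, 57.3% showed this order. Neighbouring genes can share a peak, so these 171 genes are not independent.

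The ratio of covered bases, H3.3 K27M to control, was 0.757 at Pax2, 0.802 at Pax7, 0.856 at Pax6 and 0.933 at Pax5, a median of 0.829. The EZHIP ratio was 0.0485 at Pax2, 0.223 at Pax5, 0.322 at Pax6 and 0.556 at Pax7, a median of 0.273. As deposited, the EZHIP ratios spread more widely than the H3.3 K27M ratios and did not overlap them. This separation rests on how peaks are joined. With peaks within 10000 bases merged, the EZHIP ratio became 0.513 at Pax2 and 0.759 at Pax5, and the Pax5 value then exceeded the lowest H3.3 K27M ratio. The EZHIP median at the 4 Pax genes became 0.534, against 0.533 over all 171 genes with merged peaks, and the H3.3 K27M ratios at Pax genes did not change. Over the 171 genes the medians with peaks as deposited were 0.773 for H3.3 K27M, with quartiles of 0.512 and 0.990, and 0.531 for EZHIP, with quartiles of 0.215 and 0.861. Summed over the 9 loci, peaks covered 98.0 kb in the control, 66.5 kb in the H3.3 K27M list (0.678 times the control) and 23.2 kb in the EZHIP list (0.236 times). The EZHIP ratio of these sums was 0.408 with peaks within 10000 bases merged and 0.146 when only the 5000 bases on each side of the start were counted.

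**Figure D3:**
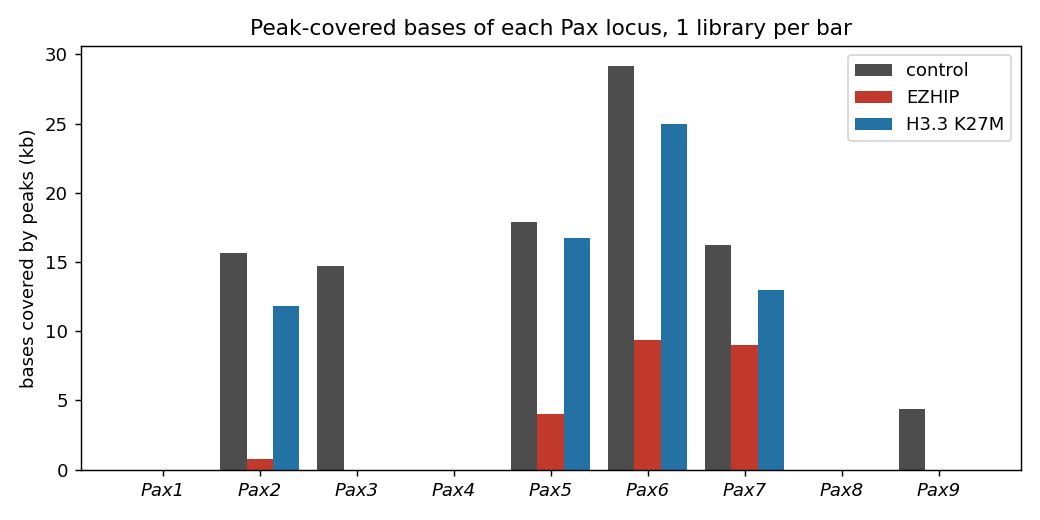
Bases covered by RING1B peaks (kb) in each Pax locus, defined as the gene body with 5000 bases on each side of its start. Bars are the control (grey), EZHIP (red) and H3.3 K27M (blue) library, 1 library each, so there is no error bar. At Pax2, Pax5, Pax6 and Pax7 the control bar is highest and the EZHIP bar lowest, and Pax3 and Pax9 have a control bar alone.

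Of the 6 Pax genes with a control peak, 4 had a peak in the EZHIP list, 4 in the H3.3 K27M list and 4 in both. Among all protein-coding genes with a control peak, 29.3% had an EZHIP peak, 28.6% an H3.3 K27M peak and 20.1% both. The lists differed at the start. All 4 genes present in every list had the start covered in the control and with H3.3 K27M but not with EZHIP, a pattern held by 25.7% of the 171 genes. Among all genes with a peak by the rule, the start lay in a peak for 74.1% in the control, 61.5% in the H3.3 K27M and 45.2% in the EZHIP list. This absence rests on how peaks are joined. When peaks within 10000 bases of each other were merged, the EZHIP peaks flanking the starts of Pax2 and Pax5 were joined and 2 of the 4 starts lay in a merged EZHIP peak.

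At the Pax genes, the peaks of the transduced lines were nested in those of the control. By the rule, 6 of 6 EZHIP peaks at Pax genes lay wholly inside a control peak, and the same 6 lay wholly inside an H3.3 K27M peak. The 5 H3.3 K27M peaks at Pax genes all lay wholly inside a control peak. The peaks just outside the rule at Pax2 and Pax3 were nested as well. Over the whole lists, the share of overlapping peaks that lay wholly inside their control partner was 92.5% for EZHIP and 92.6% for H3.3 K27M, and 61.5% of the EZHIP peaks that touched an H3.3 K27M peak lay wholly inside it. No Pax gene gained a peak over the control, and only Pax1, Pax4 and Pax8, which lacked a control peak, could have. Among all protein-coding genes, most but not all with a peak in a transduced line also held a control peak. Of 294 genes with an EZHIP peak 249 also held a control peak, as did 243 of 270 genes with an H3.3 K27M peak.

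The control peaks at Pax genes were wide. All 7 of them, at 4399 to 37599 bases, were wider than the control median of 3399 bases. In the H3.3 K27M list, 4 of 5 Pax peaks were wider than the median of 5199 bases, and the peak of 1799 bases at the end of Pax2 was not. In the EZHIP list 3 of 6 were wider than the median of 1999 bases and 3 were under 1000 bases. Such narrow peaks are not particular to EZHIP, since 109 EZHIP and 59 H3.3 K27M peaks are under 1000 bases. The control list holds none, and its narrowest peak spans 1199 bases, so the lists have different lower limits of width. Without peaks under 1000 bases, Pax2 had no EZHIP peak and 3 Pax genes remained in the EZHIP list. The ratio of summed covered bases to the control was then 0.222 for EZHIP and 0.678 for H3.3 K27M.

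CpG islands recruit Polycomb complexes in mammalian cells, so island-like sequence was located in the peaks. It was defined as 500-base windows whose G and C content reached 55% and whose CpG count reached 0.65 of that predicted from base composition. In the Pax2 locus there were 4 such islands, of which 4 were touched by control, 3 by H3.3 K27M and 0 by EZHIP peaks. The EZHIP peak in intron 1 ended 2 bases from an island, less than the 200-base bin. In the Pax7 locus 4, 4 and 3 of 4 islands were touched, in the same order, and in the Pax6 locus 5, 5 and 2 of 5. In the Pax5 locus 4, 4 and 1 of 5 islands were touched. The 2 islands of the Pax3 locus lay in the control peak and in no peak of the other lists. At the 4 kept genes, the H3.3 K27M peaks therefore touched all but 1 of the islands that the control peaks touched, and the EZHIP peaks as deposited fewer. Some of these misses were narrower than the 200-base bin. The H3.3 K27M peak at the end of Pax2 lay 101 bases from an island, and the EZHIP peak of 599 bases at Pax5 lay 2 bases from an island. With peaks within 10000 bases merged, EZHIP peaks touched 1 island at Pax2 and 4 at Pax5, the latter as many as the H3.3 K27M peak.

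Pax9 had 3 islands, Pax1 1 and Pax8 1, and no peak touched them. The control peak at Pax9 ended 2 bases from an island, less than the 200-base bin. Pax4 had no island. The start lay in an island at Pax2, Pax3, Pax6, Pax7 and Pax9 and not at Pax1, Pax4, Pax5 and Pax8, against 49.1% of all protein-coding genes and 83.5% of those with the start in a control peak. Over the whole lists, 91.2% of control, 75.5% of H3.3 K27M and 61.1% of EZHIP peaks shared at least 1 base with an island. A wider peak is a larger target. The narrowest peak spans 1199 bases in the control and 399 bases in each other list, so these shares are not compared on equal terms. Repeated sequence, which can gather misplaced reads, was counted in the Pax peaks as exact matches only. The share in other peaks was not computed. Of 32-base words sampled along each peak, from 0 to 3.33% occurred elsewhere in the genome in 17 of the 18 peaks, and 1 of 12 in the EZHIP peak of 599 bases at Pax5.

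The factors that work with Pax proteins were examined by the same rule. Genes of the Pax-Six-Eya-Dach network act together in the formation of eye, ear, kidney and muscle. Of 11 genes of this network other than the Pax genes, 3 held a control peak (Six2, Six3 and Six6), 2 a peak in the EZHIP list and 2 in that of H3.3 K27M (Six3 and Six6 in both), and no Eya or Dach gene held a peak in any list. At Six3, a forebrain and eye factor, peaks covered 20252 bases in the control, 18452 in the H3.3 K27M and 399 in the EZHIP list. At Six6, an eye and pituitary factor, they covered 10001, 8332 and 8932 bases, and the start lay in a peak of all 3 lists. Six2, which maintains nephron progenitors, was covered over 4199 bases in the control alone.

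Of 21 genes known to act below Pax factors, 6 held a control peak, 2 an EZHIP peak and 5 an H3.3 K27M peak. These are 28.6%, 9.52% and 23.8%, against 3.81%, 1.32% and 1.21% of all protein-coding genes. Lhx1, a kidney and head organiser factor, was covered over 12445 bases in the control, 12121 in the H3.3 K27M and 8521 in the EZHIP list. Nkx3-2, a cartilage factor downstream of Pax1 and Pax9, was covered over 8465, 6865 and 799 bases in that order. Wt1, Gata3 and Msx1 held a peak in the control and with H3.3 K27M but none with EZHIP. Gdnf, the kidney ligand downstream of Pax2, held a control peak alone. The other 15, among them the muscle genes Myf5 and Myod1 and the B cell gene Cd79a, held none.

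Other developmental transcription factor families were set beside the Pax genes. A control peak was found at 5 of 6 Dlx genes, 4 of 6 Irx genes and 4 of 6 Gata genes, compared with 6 of 9 Pax genes. An EZHIP peak was found at 1 Dlx, 0 Irx and 2 Gata genes, and an H3.3 K27M peak at 2 Dlx, 3 Irx and 2 Gata genes. The Pax count was 4 of 9 in each of these lists. A peak in all 3 lists was held by 1 Dlx, 0 Irx and 1 Gata gene and by 4 of 9 Pax genes. This rule favours long genes. The gene start itself lay in a control peak at 5 Pax, 5 Dlx, 3 Irx and 3 Gata genes. It lay in an H3.3 K27M peak at 4, 2, 0 and 0 genes and in an EZHIP peak at 0, 1, 0 and 0, in the same order. These families are small and members such as Dlx1 and Dlx2 share a peak, so the counts are given as a description and the difference between families was not tested.

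**Figure D4:**
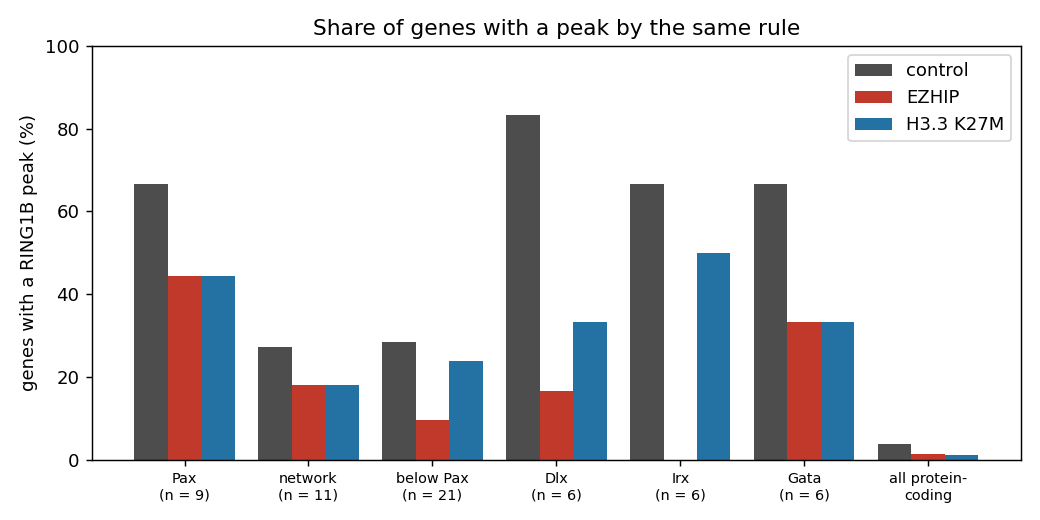
Share of genes (%) with a RING1B peak by the same rule in the Pax family, the genes of the Pax-Six-Eya-Dach network, genes below Pax factors, the Dlx, Irx and Gata families and all protein-coding genes. Bars are the control (grey), EZHIP (red) and H3.3 K27M (blue) lists. The Pax bars stand at 66.7%, 44.4% and 44.4%, and the bars for all protein-coding genes at 3.81%, 1.32% and 1.21%.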

How the data were processed

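RING1B ChIP-Seq peak lists of 3 MEF libraries (control, EZHIP and H3.3 K27M) were analysed, and each was grouped by the cell type in its label. Per the methods, the authors aligned reads to mm9 with bowtie1 (Bowtie 1.0.0 in the submitters' processing notes) and called broad peaks in each library with MOSAiCS-HMM, with a stated maximum gap of 10000 and minimum size of 1000. The deposited lists have 3 columns (chromosome, start, end) and no count, signal or score. The lists as deposited contain 109 EZHIP and 59 H3.3 K27M peaks under 1000 bases, and 22 control, 5 EZHIP and 4 H3.3 K27M gaps of at most 10000 bases. All 1418 peaks lie on a grid of 200 bases. Width is end minus start, and printed positions are 1-based.

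Peaks were assigned with GENCODE vM1 on NCBIM37 in Python 3.11.15 with numpy 2.4.6 and matplotlib 3.10.9. No peak passed the end of its chromosome in that assembly. The gene start is the 5′ end of the gene record. Exon and intron numbers follow the protein-coding transcript with the longest coding sequence. Assignment was tested on 400 genes with simulated peaks, and 200 of 200 planted peaks and 0 of 200 peaks placed just outside were assigned. The members, lists and rules were chosen with earlier results of these data known. All 9 members were named, of the other lists genes with a peak and, as examples of genes without, Myf5, Myod1 and Cd79a, which were picked by function. Some genes of the planned network and downstream lists are not reported here and were left out of their counts. A comparison of protein sequences was planned and not made.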

Additional observations from a re-analysis of the deposited data

How the results depend on the processing

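For 24 values, 15 alternatives were run where they applied, and a value was taken as changed when it moved by more than 1.5 times. When the gene start had to lie in a peak, the EZHIP list held 0 Pax genes, and 0 Pax genes had a peak in all 3 lists. With peaks within 10000 bases merged as well, both counts became 2. This last setting and a window of 20000 bases, which brought Pax3 into the H3.3 K27M list, were chosen after seeing the data. Within 5000 bases of the start alone, peaks covered 51758 bases of the Pax loci in the control, 35158 in the H3.3 K27M and 7553 in the EZHIP list, and the EZHIP ratio to the control became 0.146. With peaks within 10000 bases merged, EZHIP peaks covered 40016 bases, a ratio of 0.408, and the median EZHIP ratio at the 4 Pax genes rose from 0.273 to 0.534, with Pax2 at 0.513 and Pax5 at 0.759. The merged ratios of single Pax genes and their median were added after seeing the data. Of the 7 control peaks at Pax genes, 5 shared a base with an EZHIP peak. The same share over all 821 control peaks was not computed, so the count is a description only. The count at Pax genes was 3 with peaks of at least 1000 bases, 3 with equal numbers of the widest peaks and 1 when 50% of both peaks had to be shared. Of the 32 network and downstream genes, 4 held an EZHIP peak, against 1.32% of all protein-coding genes. The count was 2 when the start had to lie in a peak or with peaks of at least 1000 bases. The other recomputed values stayed within 1.5 times, no ratio crossed 1, and the H3.3 K27M counts of Pax genes were 4 in every setting except the window of 20000 bases, where the count was 5. No paired analysis was possible because each group holds 1 library. Depth is unknown, so no list could be adjusted for it.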

Other observations

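Of the 20 protein-coding genes next to or overlapping a Pax gene, 2 held a control peak (10%, against 3.81% of all protein-coding genes), 0 an EZHIP peak and 1 an H3.3 K27M peak. Both genes with a control peak flank Pax1. Nkx2-2, a ventral neural tube factor 168 kb upstream of Pax1, was covered over 9399 bases in the control and held no peak in the other lists. Foxa2, an endoderm and floor plate factor 650 kb downstream, was covered over 8695 bases in the control and 5895 in the H3.3 K27M list. Pax1 itself lay between them without a peak in any list.

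Within 100 kb of a Pax start, the control list held a further pair of peaks upstream of Pax2, of 4199 and 2799 bases, with near edges 81340 and 71740 bases before the start. Neither holds an annotated gene start and neither had a counterpart in the EZHIP or H3.3 K27M list. Elp4, which overlaps the end of Pax6, and Slc25a21, which overlaps Pax9, held no peak by the rule.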
